A study of Homo sapiens with 4 samples.

Results

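HLA class I molecules and the machinery that loads them with peptide were examined in 2 human lung cancer lines. PC9 is an established adenocarcinoma line driven by mutant EGFR, and MTAC-P is a resistant line that, per its labels, was derived under a mild TKI (tyrosine kinase inhibitor) regimen. The genes were the heavy chains HLA-B, HLA-C, HLA-E and HLA-F, the light chain B2M, the peptide transporter subunits TAP1 and TAP2, and the immunoproteasome subunits PSMB8 and PSMB9. They were chosen by name, with earlier results of these data known, and all 9 of the 9 were among the 14970 genes tested. The table holds 49386 probe sets, of which 42 are annotated with the symbol of 1 of these genes alone, and each gene was represented by its brightest probe set, averaged over the arrays.

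Total RNA was measured on 4 arrays, 2 of PC9 and 2 of MTAC-P, and every value below is a log2 expression value unless another scale is named. Both lines were grown in DMEM with serum. No inhibitor, dose, parent line or drug exposure at collection is given for MTAC-P in the labels, and nothing says that the 2 arrays of a line were separate cultures, so p-values measure a spread that may be technical.

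Class I molecules display short peptides from inside the cell to cytotoxic T cells and natural killer cells. The immunoproteasome, in which PSMB8 and PSMB9 replace constitutive catalytic subunits, cuts proteins into peptides, the TAP1 and TAP2 heterodimer pumps these into the endoplasmic reticulum, and a heavy chain paired with B2M is loaded there before it travels to the surface. Interferon gamma, in part through IRF1, and NF-kB raise transcription of most of these genes, and NLRC5 acts as a class I transactivator at their promoters. Loss of class I display is a known route by which lung cancers escape T cells.

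The arrays looked like epithelial cell RNA. All 6 of 6 epithelial markers were bright, with means from 10.6 to 14.4, and their summed level ranged from 77.62 to 77.63 in PC9 and from 76.92 to 77.04 in MTAC-P. Genes with a mean below 4.14, which is the 25th percentile over the whole table, were left out as dim. Of 7 markers of leukocytes, which express class I genes strongly, 2 passed that value and the highest mean was 4.65, and PTPRC was not analysed here. The summed level of the 6 leukocyte markers with a probe set ranged from 24.7 to 25.9 in PC9 and from 25.02 to 25.6 in MTAC-P. Of 6 fibroblast markers 4 passed, with a highest mean of 4.76, and all 4 endothelial markers passed, with a highest mean of 5.34.

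The promoter sequences are shown because class I genes are known to be switched on through promoter elements. None of the elements sought below stood in every window. RefSeq's table for GRCh38.p14 matched 8 of the 9 genes, in 10 windows, since TAP1 and PSMB8 each have 2 annotated starts. Each line gives the 250 bases before the start of a gene, read toward the gene, with the first annotated start used for TAP1. Capitals mark matches on either strand, and overlapping matches merge into 1 run of capitals. The letters sought were GAAANNGAA (the core of an interferon response element) and GAANTGAAA (a second form of the same length). The others were GGNNTTNCC (an NF-kB type site) and CCAAT (the box bound by NF-Y).
HLA-B, chr6:31357180-31357429 (minus strand): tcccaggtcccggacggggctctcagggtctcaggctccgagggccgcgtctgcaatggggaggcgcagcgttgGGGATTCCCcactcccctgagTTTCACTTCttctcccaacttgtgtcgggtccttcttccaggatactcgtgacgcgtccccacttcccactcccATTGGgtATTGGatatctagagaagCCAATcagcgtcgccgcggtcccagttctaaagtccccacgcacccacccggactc
HLA-F, chr6:29723184-29723433 (plus strand): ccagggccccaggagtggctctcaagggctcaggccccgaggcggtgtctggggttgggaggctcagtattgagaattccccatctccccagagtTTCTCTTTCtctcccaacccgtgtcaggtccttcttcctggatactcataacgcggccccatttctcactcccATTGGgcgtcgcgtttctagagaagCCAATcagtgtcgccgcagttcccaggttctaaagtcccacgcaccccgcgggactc
B2M, chr15:44711267-44711516 (plus strand): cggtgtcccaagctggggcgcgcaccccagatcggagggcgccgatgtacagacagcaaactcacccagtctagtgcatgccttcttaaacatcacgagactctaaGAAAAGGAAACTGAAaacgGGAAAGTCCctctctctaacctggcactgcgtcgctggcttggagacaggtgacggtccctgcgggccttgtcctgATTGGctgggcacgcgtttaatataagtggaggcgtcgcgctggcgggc
TAP1, chr6:32853705-32853954 (minus strand): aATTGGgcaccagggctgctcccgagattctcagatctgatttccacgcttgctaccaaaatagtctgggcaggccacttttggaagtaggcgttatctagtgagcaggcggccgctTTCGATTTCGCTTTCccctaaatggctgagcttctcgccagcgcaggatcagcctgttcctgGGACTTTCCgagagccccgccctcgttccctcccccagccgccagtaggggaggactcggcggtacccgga
TAP2, chr6:32838740-32838989 (minus strand): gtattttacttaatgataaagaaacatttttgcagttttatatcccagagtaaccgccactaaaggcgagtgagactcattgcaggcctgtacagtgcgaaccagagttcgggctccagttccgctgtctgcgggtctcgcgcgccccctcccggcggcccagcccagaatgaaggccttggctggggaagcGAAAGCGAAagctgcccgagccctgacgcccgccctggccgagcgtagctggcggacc
PSMB9, chr6:32853942-32854191 (plus strand): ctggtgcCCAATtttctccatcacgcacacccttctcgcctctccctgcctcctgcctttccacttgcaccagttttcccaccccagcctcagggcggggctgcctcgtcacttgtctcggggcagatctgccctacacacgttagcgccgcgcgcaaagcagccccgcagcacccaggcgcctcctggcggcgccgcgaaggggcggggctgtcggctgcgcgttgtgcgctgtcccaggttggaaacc

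The interferon response core stood in 4 of the 10 class I windows, those of HLA-F, B2M, TAP1 (first start) and TAP2, against 6.88% of all 35116 windows in the table. The second interferon form stood in the windows of HLA-B and HLA-C, and 1.53% of all windows held it. The NF-kB type site stood in 5 of the 10, those of HLA-B, B2M, both TAP1 starts and the first PSMB8 start, with 15% of all windows holding it. CCAAT was found in 6 of the 10 class I windows and in 32% of all windows. In HLA-B, HLA-C and HLA-F the interferon element ended 147, 143 and 147 bases before the start, with a CCAAT box from 56 or 57 bases before it, so these heavy chain genes share a spacing. TAP1 and PSMB9 are transcribed away from each other from starts 488 bases apart, and their windows share 13 bases. The window of the second PSMB8 start held no match, which says only that these letters were not found there. The letters of these elements were chosen after the class I windows had been read. Both interferon forms were shortened by a base after counts with the longer versions were known. Those versions held other shares of all windows and, for the second form, another count of class I windows. The counts beside the shares of all windows are therefore a description of these windows and not evidence that the elements are enriched in them.

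Between the lines, B2M and HLA-F had lower means in MTAC-P, HLA-B was also lower, and the transporter and immunoproteasome genes had higher means. None of these differences passed the test across all genes. On the linear scale they ranged from 1.06-fold for HLA-C to 1.70-fold for HLA-F. By role, 2 of 4 heavy chains and the light chain had lower means, and both TAP and both immunoproteasome genes had higher ones. In bulk RNA, fewer cells expressing a gene and less RNA per cell cannot be told apart.

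B2M encodes beta-2 microglobulin, the invariant light chain that every class I heavy chain needs to reach the surface. It stood at 12.58 and 12.82 on the PC9 arrays and at 12.29 and 12.25 on the MTAC-P arrays. Both MTAC-P arrays lay below both PC9 arrays, and the MTAC-P arrays were the closer pair. The mean was 12.70 ± 0.16 in PC9 and 12.27 ± 0.029 in MTAC-P (SD, n = 2 each), a 1.35-fold lower linear level. The log2 difference of B2M was -0.43 (SE 0.16, 95% interval -0.83 to -0.037, limma adjusted p = 0.235, unadjusted p = 0.0365).

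All 8 of the 8 B2M probe sets were lower in MTAC-P, with differences from -0.50 to -0.40, and none of the 8 had overlapping arrays. They target 1 gene and share the same 4 RNA samples, so they are repeated readings and not replicates. The B2M difference lay between -0.55 and -0.32 when any 1 array was left out.

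HLA-B, the most polymorphic of the classical heavy chains that present to CD8 T cells, stood at 8.42 and 8.51 in PC9 and at 7.88 and 8.28 in MTAC-P. The lines did not overlap, but MTAC-P replicate 2 came within 0.14 of the lower PC9 array. The means were 8.46 ± 0.065 and 8.08 ± 0.28 (SD, n = 2 each). HLA-B thus differed by -0.39 on the log2 scale (SE 0.19, 95% interval -0.84 to 0.067, limma adjusted p = 0.323). Its second probe set above the dim value was also lower, by a difference of -0.29 with arrays that did not overlap. The HLA-B difference was -0.19 without MTAC-P replicate 1, -0.58 without MTAC-P replicate 2, and -0.14 with the mean of its 3 probe sets.

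HLA-C, the other classical heavy chain of the set and a ligand of killer immunoglobulin-like receptors, stood at 10.37 and 10.42 in PC9 and at 10.34 and 10.63 in MTAC-P. The lines overlapped, since 1 MTAC-P array was the lowest of the 4 and the other the highest. HLA-C differed by 0.087 on the log2 scale (SE 0.17, 95% interval -0.32 to 0.50, limma adjusted p = 0.811). Without MTAC-P replicate 2 the difference was -0.058, and without MTAC-P replicate 1 it was 0.23. The other probe sets of HLA-C differed by -0.090 and -0.27, and with the mean of all 3 it was -0.090, so no direction can be given for this gene.

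HLA-E presents leader peptides of other class I chains to the receptor NKG2A on natural killer cells. It stood at 9.48 and 9.63 in PC9 and at 9.68 and 9.85 in MTAC-P, and both MTAC-P arrays were the higher ones by a narrow margin. The difference between the HLA-E means was 0.22 (SE 0.16, 95% interval -0.17 to 0.61, limma adjusted p = 0.502). Of its 6 probe sets 5 were higher and 1 lower, from -0.23 to 0.22, and 2 had arrays that did not overlap. With the mean of all 6 the difference was 0.073, without MTAC-P replicate 2 it was 0.13, and without PC9 replicate 1 it was 0.14.

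HLA-F, a non-classical heavy chain found on activated lymphocytes and stressed cells, had the largest difference of the set. It stood at 5.18 and 6.05 in PC9 and at 4.73 and 4.98 in MTAC-P. PC9 replicate 2 stood apart, 0.87 above its duplicate, while the remaining 3 arrays lay within 0.45 of each other. The means were 5.62 ± 0.61 and 4.85 ± 0.17 (SD, n = 2 each), and the log2 difference was -0.76 (SE 0.29, 95% interval -1.47 to -0.056, limma adjusted p = 0.239, unadjusted p = 0.0383). Without PC9 replicate 2 the difference was -0.33, and without PC9 replicate 1 it was -1.20. Of the 8 HLA-F probe sets above the dim value 4 were lower and 4 higher, from -0.81 to 0.31. The 3 brightest of them were the 3 lower ones without overlap, at -0.76, -0.81 and -0.63, and 2 dimmer ones were higher without overlap, at 0.31 and 0.11. With the mean of all 10 HLA-F probe sets the difference was -0.12.

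Affymetrix marks probe sets that can match other sequences with the suffixes _x_at and _s_at. Of the 19 heavy chain probe sets above the dim value 15 carry them, including all those of HLA-B, HLA-C and HLA-E, and so do 6 of the 8 of B2M. How much of their signal came from another heavy chain was not tested. B2M had 2 probe sets without these suffixes, at -0.50 and -0.43. The HLA-F probe sets above the dim value without them went both ways. The second brightest was at -0.81 and another at -0.15, whereas those at 0.31 and 0.11 were higher without overlap. The plot of every probe set shows this spread.

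**Figure D1:**
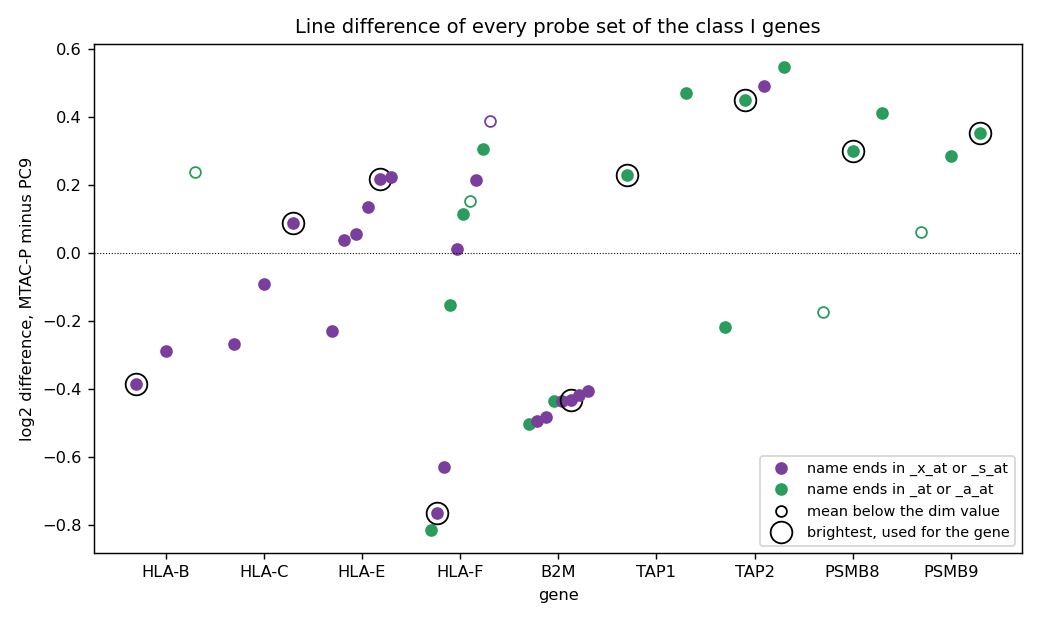
Log2 difference (MTAC-P minus PC9, vertical axis) of each of the 42 probe sets, grouped by gene; purple points carry the _x_at or _s_at suffix, green points do not, open points have a mean below the dim value and black rings mark the probe set used for the gene. The 8 B2M points lie together between -0.50 and -0.40, whereas those of HLA-F run from -0.81 to 0.39.

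TAP2, the transporter subunit that completes the peptide pump, stood at 10.42 and 10.28 in PC9 and at 10.62 and 10.98 in MTAC-P. Both MTAC-P arrays lay above both PC9 arrays. The means were 10.35 ± 0.10 and 10.80 ± 0.25 (SD, n = 2 each), a 1.37-fold higher linear level in MTAC-P. The log2 difference of TAP2 was 0.45 (SE 0.18, 95% interval 0.0070 to 0.89, limma adjusted p = 0.260, unadjusted p = 0.0474). Of its 4 probe sets 3 were higher without overlap, at 0.45, 0.49 and 0.55, and 1 was lower without overlap, at -0.22. Without MTAC-P replicate 2 the TAP2 difference was 0.27.

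TAP1, its partner, stood at 8.84 and 9.13 in PC9 and at 9.05 and 9.38 in MTAC-P. The lines overlapped, as PC9 replicate 2 lay above MTAC-P replicate 1. For TAP1 the log2 difference was 0.23 (SE 0.19, 95% interval -0.24 to 0.70, limma adjusted p = 0.555). Its second probe set, at 6.86 and 7.10 in PC9 and 7.42 and 7.48 in MTAC-P, differed by 0.47 without overlap. Without MTAC-P replicate 2 the TAP1 difference was 0.063, and without PC9 replicate 1 it was 0.085. Leaving out MTAC-P replicate 1 or PC9 replicate 2 gave 0.40 and 0.38.

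PSMB8 encodes the immunoproteasome subunit that replaces PSMB5. It stood at 11.01 and 10.70 in PC9 and at 10.92 and 11.39 in MTAC-P, so the lines overlapped. PSMB8 differed by 0.30 on the log2 scale (SE 0.22, 95% interval -0.22 to 0.82, limma adjusted p = 0.487), and it was 0.068 without MTAC-P replicate 2 and 0.14 without PC9 replicate 2. Leaving out MTAC-P replicate 1 or PC9 replicate 1 gave 0.53 and 0.46. A second PSMB8 probe set differed by 0.41 without overlap.

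PSMB9, which replaces PSMB6 and lies head to head with TAP1, stood at 9.50 and 9.26 in PC9 and at 9.59 and 9.88 in MTAC-P. The lines did not overlap, by 0.087 between the nearest arrays. PSMB9 differed by 0.35 on the log2 scale (SE 0.18, 95% interval -0.089 to 0.79, limma adjusted p = 0.346). Without MTAC-P replicate 2 the PSMB9 difference was 0.21, and without PC9 replicate 2 it was 0.23. The second PSMB9 probe set above the dim value differed by 0.29. The plot of the arrays shows the 9 genes on panels of equal height.

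**Figure D2:**
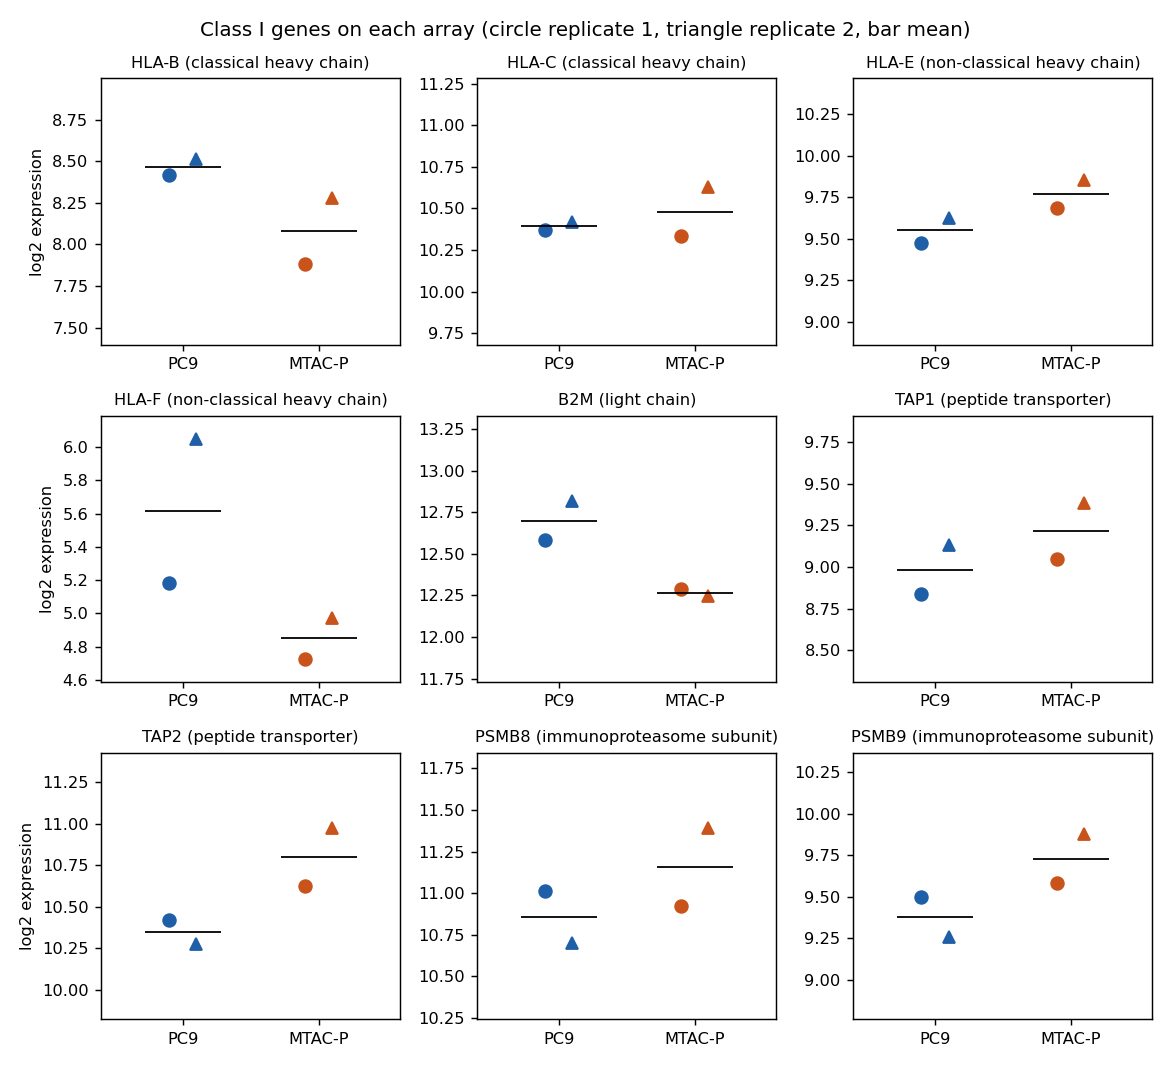
Log2 expression (vertical axis, 1 panel per gene, each spanning the same log2 range) on the PC9 and MTAC-P arrays; circles are replicate 1, triangles replicate 2 and bars the mean of 2 arrays. B2M, HLA-B and HLA-F lie lower in MTAC-P and HLA-E, TAP2 and PSMB9 higher without overlap, and the lines overlap for HLA-C, TAP1 and PSMB8.

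Across all genes, limma with Benjamini-Hochberg adjustment called 3 of 14970, or 0.0200%, and 0 of the 9 class I genes. Of the 9, 6 had a higher mean in MTAC-P, against 53.8% of all genes. The count over all genes was 68 without PC9 replicate 1, 4 without PC9 replicate 2 and 0 without either MTAC-P array. At an unadjusted p under 0.05, 3 of the 9 passed (B2M, HLA-F and TAP2), against 18.9% of all tested genes. The arrays did not overlap for 6 of the 9, against 53.2% of all genes, and the 6 were 3 in each direction, against 28.3% of all genes higher and 24.9% lower without overlap. Means were at least 1.5-fold apart for 1 of the 9, HLA-F, and for 11.9% of all genes. For a set of 9 genes these counts are close to the background. The median difference was 0.22 over the 9 genes and 0.031 over all tested genes, and it was 0.063 without MTAC-P replicate 2. With 2 arrays against 2, an exact 2-sided permutation test cannot give a p below 0.333, so none was used.

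**Figure D3:**
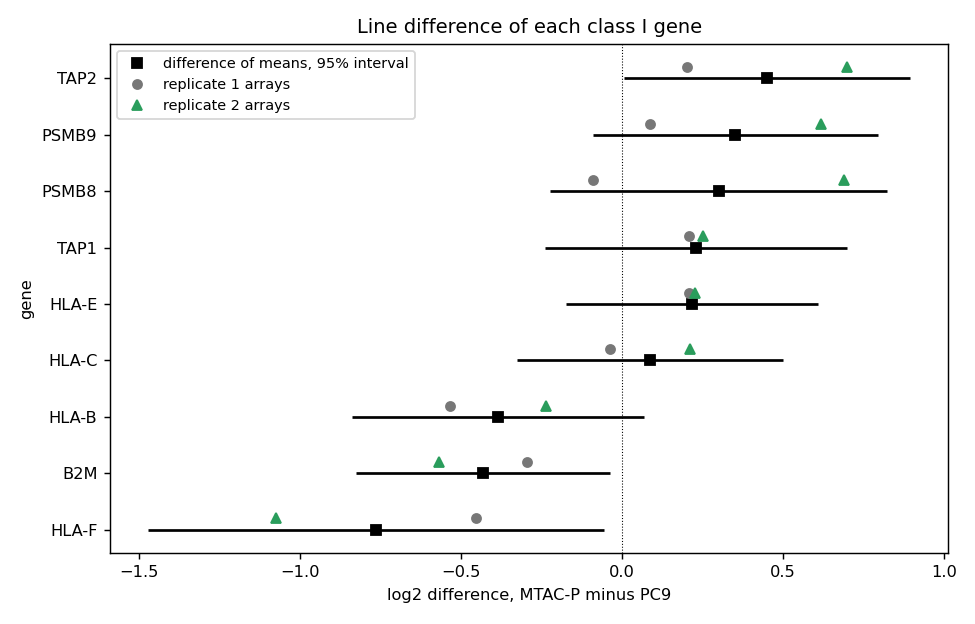
Log2 difference, MTAC-P minus PC9 (horizontal axis), for each gene; squares with lines are the difference of means with limma's 95% interval, circles the difference between the replicate 1 arrays and triangles that between the replicate 2 arrays. The intervals of B2M, HLA-F and TAP2 exclude 0 before adjustment, and PSMB8 runs from -0.090 in replicate 1 to 0.69 in replicate 2.

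Replicate 1 was then set against replicate 2 within each line. In MTAC-P, replicate 2 was higher for 8 of the 9 genes, all but B2M, against 52.8% of all tested genes. In PC9, replicate 2 was higher for 6 of the 9, against 49.6%, and the exceptions were TAP2, PSMB8 and PSMB9. The median of replicate 2 minus replicate 1 was 0.29 in MTAC-P and 0.092 in PC9, against 0.021 and -0.0026 over all tested genes. These differences rest on 1 array a side and have no error of their own.

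The heavy chains were higher on replicate 2 in both lines. HLA-B differed between the duplicates by 0.092 in PC9 and 0.39 in MTAC-P, HLA-C by 0.044 and 0.29, and HLA-E by 0.15 and 0.17. HLA-F differed by 0.87 in PC9 and 0.25 in MTAC-P, and its PC9 duplicates were the only ones of the 9 genes at least 1.5-fold apart in that line, against 6.36% of all genes. In MTAC-P 0 of the 9 reached 1.5-fold, against 9.38%. TAP1 differed by 0.29 and 0.33, in the same direction in both lines.

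For TAP2, PSMB8 and PSMB9 the duplicates differed in opposite directions in the lines. Replicate 2 minus replicate 1 was -0.14 in PC9 and 0.35 in MTAC-P for TAP2, -0.31 and 0.47 for PSMB8, and -0.24 and 0.29 for PSMB9. B2M differed by 0.23 in PC9 and -0.041 in MTAC-P. Of the 9 genes 4 thus had duplicates of opposite sign, against 44.0% of all tested genes. The line difference of TAP2 was 0.20 between the replicate 1 arrays and 0.70 between the replicate 2 arrays, that of PSMB8 -0.090 and 0.69, and that of PSMB9 0.087 and 0.62. For HLA-E it was 0.21 and 0.23, and for TAP1 0.21 and 0.25. B2M, HLA-E, TAP2 and PSMB9 had a line difference larger than the duplicate difference of either line, 4 of 9 against 38.5% of all genes.

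**Figure D4:**
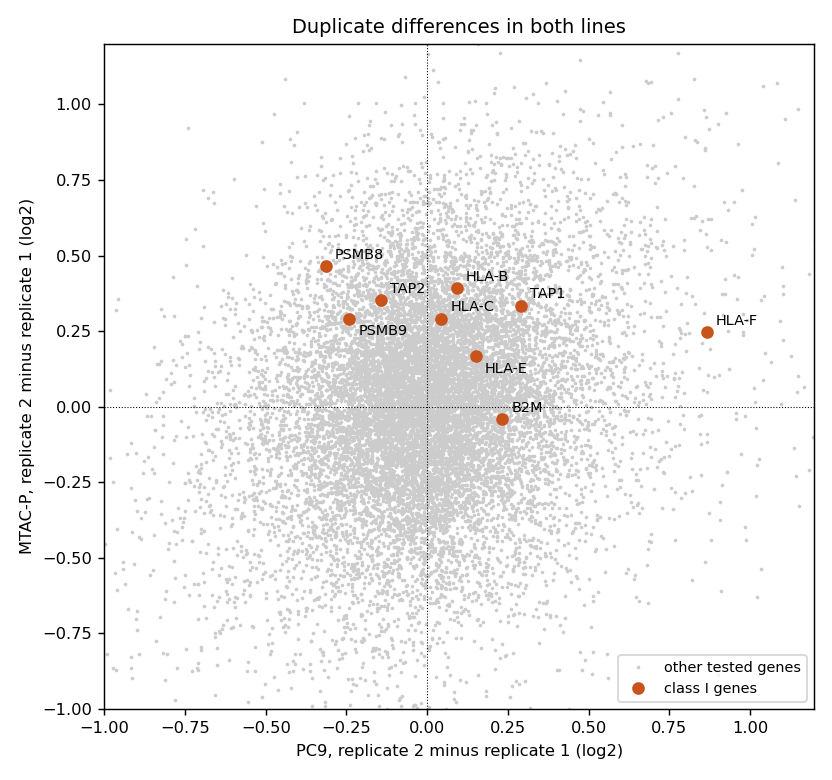
Replicate 2 minus replicate 1 in PC9 (horizontal, log2) and in MTAC-P (vertical, log2) for the 9 class I genes (orange, named) and the other tested genes (grey); the axes run from -1 to 1.2 and leave out 271 genes. TAP2, PSMB8 and PSMB9 sit together at the upper left, HLA-F at the far right, and B2M below 0 in MTAC-P.

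The array patterns of the genes, each centred on its own mean, were compared by root-mean-square distance over the 4 arrays, as a description. Of the 36 pairs, TAP2 and PSMB9 were the closest at 0.064 and PSMB8 and PSMB9 came next at 0.072, followed by HLA-E and TAP1 at 0.078. TAP1 and PSMB9, which share a promoter region, ranked 14 at 0.20. HLA-B and B2M ranked 8 at 0.16. A small distance is easily reached by genes that vary little. HLA-C had the narrowest range over the arrays, 0.29, and HLA-E came next at 0.38. HLA-F had the widest range, 1.32, and the 4 tested genes with the pattern most like it were WFDC2 at a distance of 0.025, GSAP at 0.063, CA12 at 0.068 and DIPK1A at 0.084. WFDC2, which encodes a secreted epithelial protein, stood at 10.31 and 11.24 in PC9 and at 9.86 and 10.11 in MTAC-P.

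The other genes listed as class I loading partners, which include peptide trimming and proteasome activator genes, were mixed. Among 12 tested partners, 6 had higher and 6 lower means in MTAC-P. Their median difference was -0.037 (0.037 without MTAC-P replicate 1), and limma called 0 of them (4 at an unadjusted p under 0.05). The chaperone calreticulin, encoded by CALR, stood at 7.48 and 7.64 in PC9 and at 7.90 and 8.54 in MTAC-P (difference 0.66, SE 0.24, limma adjusted p = 0.218). PSME3, a proteasome activator subunit of the nucleus, differed by 0.40. ERAP2, an aminopeptidase that trims peptides in the endoplasmic reticulum, stood at 7.03 and 7.18 in PC9 and at 6.58 and 6.08 in MTAC-P (difference -0.77, SE 0.21, limma adjusted p = 0.144). Calnexin, encoded by CANX, which folds new heavy chains, differed by -0.41. Tapasin, encoded by TAPBP, which holds the heavy chain at the transporter, differed by -0.37 without overlap of the arrays. PSMB10, the third immunoproteasome subunit, was measured only by 3 probe sets shared with the gene CTRL, which differed by 0.22, 0.28 and 0.22.

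The constitutive proteasome core gave a comparison for PSMB8 and PSMB9. Of its 14 genes, 9 had higher and 5 lower means in MTAC-P. Their median difference was 0.071 (0.13 without PC9 replicate 1), and limma called 0 of them (2 at an unadjusted p under 0.05). PSMB5, the constitutive counterpart of PSMB8, stood at 12.14 and 11.99 in PC9 and at 12.24 and 12.46 in MTAC-P (difference 0.28, SE 0.17). PSMB6, the counterpart of PSMB9, stood at 12.68 and 12.49 in PC9 and at 12.69 and 13.05 in MTAC-P (difference 0.29, SE 0.19). The counterparts thus had differences of nearly the size of those of PSMB8 (0.30) and PSMB9 (0.35), and PSMB7, the counterpart of PSMB10, differed by 0.25. The highest difference was PSMB3 at 0.32, and the lowest were the ring subunits PSMA3 at -0.68 and PSMA4 at -0.50.

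Upstream of the class I promoters, 11 of 21 tested regulators had higher means in MTAC-P and 10 lower ones. Their median difference was 0.0067, from -0.093 without MTAC-P replicate 2 to 0.13 without PC9 replicate 2, and limma called 0 of them (4 at an unadjusted p under 0.05). IFNGR1, the ligand-binding chain of the interferon gamma receptor, stood at 10.36 and 11.21 in PC9 and at 9.62 and 9.68 in MTAC-P. Both MTAC-P arrays lay below both PC9 arrays, a 2.20-fold lower mean (log2 difference -1.13, SE 0.28, limma adjusted p = 0.133). Its partner IFNGR2 differed by 0.47, from 8.02 ± 0.060 to 8.49 ± 0.19 (SD, n = 2 each), and NFKB1, an NF-kB subunit, by 0.44. NFYB, a subunit of the CCAAT-binding factor, differed by -0.68 (SE 0.16, limma adjusted p = 0.125). IRF1 differed by 0.30 with overlapping arrays, at 6.06 and 5.78 in PC9 and 5.93 and 6.50 in MTAC-P. IRF1 was thus lower on replicate 2 in PC9 and higher on it in MTAC-P, as TAP2, PSMB8 and PSMB9 were. Many genes of the lists had that pattern too. They were the constitutive subunits PSMA2, PSMA7, PSMB1, PSMB2, PSMB3, PSMB4, PSMB5, PSMB6 and PSMB7. Among the regulators they were IFNGR2, RFX5, RFXAP, NFKB1 and RELA. The other tested genes of the proteasome core and the regulators did not have it. Duplicate differences of opposite sign, in either order, were seen in 44.0% of all tested genes, and each rests on 1 array a side. NLRC5 stood at 4.60 and 5.26 in PC9 and at 4.59 and 5.11 in MTAC-P, and differed by -0.080.

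Interferon-stimulated genes outside the class I set had lower means for 16 of 21, whereas 53.8% of all tested genes had higher means. Their median difference was -0.17, and -0.044 without PC9 replicate 2. Limma called 0 of them (3 at an unadjusted p under 0.05, against 18.9% of all tested genes). SAMD9, an antiviral factor, differed by -1.50 (SE 0.31, limma adjusted p = 0.113) and GBP2, an interferon-induced GTPase, by -1.05 (SE 0.30, limma adjusted p = 0.159). The highest were IFIT3 and XAF1, at 0.24 each. Their means were 4.51 and 4.13 in PC9 and 4.76 and 4.37 in MTAC-P, close to the dim value of 4.14. Several others of the list, among them IFIT1, IFI44 and CXCL10, were also near that value. The higher means of TAP2, PSMB8 and PSMB9 thus stood beside lower means of most of this list, and that difference was not tested.

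Among 12 tested class I-like genes and B2M partners, 10 had higher means in MTAC-P. Their median difference was 0.11 (0.18 without MTAC-P replicate 2), and limma called 0 of them (0 also at an unadjusted p under 0.05). MICB, a stress ligand of the receptor NKG2D, differed by 0.37 (SE 0.18). CD1E, at low means of 4.82 in PC9 and 5.13 in MTAC-P, differed by 0.31. FCGRT, the B2M-dependent Fc receptor chain, differed by -0.60 (SE 0.26), and CD1A by -0.40, at low means of 4.78 and 4.38. HLA class II genes had 5 higher and 7 lower means of 12. Their median difference was -0.043, from -0.13 without PC9 replicate 1 to 0.050 without PC9 replicate 2, and limma called 0 of them (1 at an unadjusted p under 0.05). Their means over the arrays reached 5.11 at most. HLA-DMA differed by -0.68 and HLA-DMB by -0.30, while CIITA, the class II transactivator, differed by 0.29 and HLA-DOA by 0.25.

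**Figure D5:**
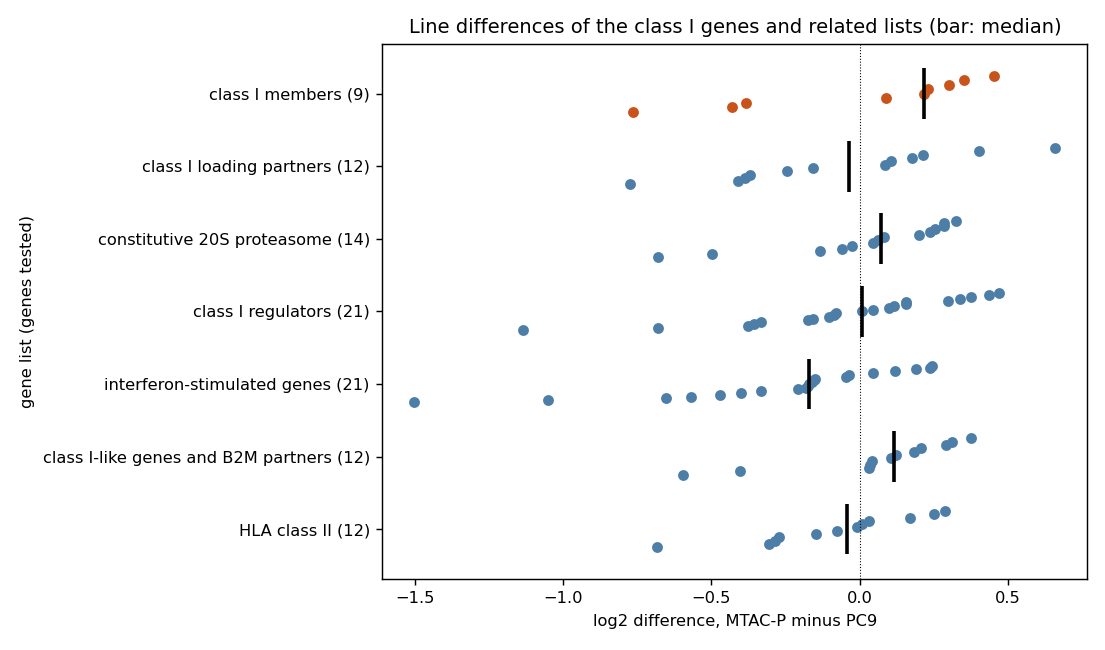
Log2 difference, MTAC-P minus PC9 (horizontal axis), of each tested gene in the class I set (orange) and in 6 related lists (blue), with the median of each as a black bar. The class I genes run from -0.76 to 0.45, 3 below 0 and 6 above, and the interferon-stimulated genes have the lowest median, -0.17.

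All of the class I genes but B2M, on chromosome 15, lie on chromosome 6 in the major histocompatibility complex. Between HLA-F and HLA-DPB1, 73 of 103 other tested genes had higher means in MTAC-P and 30 lower ones. Their median difference was 0.17 and limma called 0 of them, and 53.8% of all tested genes were higher. The sign for TAP1, TAP2, PSMB8, PSMB9 and HLA-E was that of most of these neighbours, and HLA-B and HLA-F went the other way. HLA-DOB and HLA-DMB, at low means of 4.22 and 4.64 in PC9, flank the block of TAP2, PSMB8, TAP1 and PSMB9. These immediate neighbours differed by -0.011 and -0.30. This region was chosen after the values were seen, and its part in the differences was not tested.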

How the data were processed

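Total RNA of 2 PC9 and 2 MTAC-P samples was labelled with a one-colour Agilent Cy3 kit, per the labels' protocols, and Agilent Feature Extraction 10.7 is named in the submitters' processing notes. The probe set names are nevertheless of Affymetrix type, and how the kit relates to them is not settled. The authors deposited log2 values, 1 per probe set and array; that scale was inferred from their range, 3.32 to 14.6. Background correction and normalization are not given in the sources used here. Array medians lay between 4.85 and 4.88, and no further scaling was applied.

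GEO's platform annotation gives 1 symbol for 45253 of the 49386 probe sets and several for 1327; 2713 are unnamed here and 93 are controls. Symbols were updated through gene identifiers to GRCh38.p14, which held 14944 of 14970 tested genes. Each gene was its brightest probe set, and 3269 genes with a mean under 4.14 were left out. MTAC-P was set against PC9 by a 2-sided limma fit (version 3.58.1, R 4.3.3) of all 4 arrays with no covariate, with p-values Benjamini-Hochberg adjusted over all tested genes at 0.05. SE and 95% intervals are limma's, and the number of arrays limits the precision. The test was checked on simulated data in which only a small share of the genes was changed, and recovery depends on that share. There it recovered 21.8% of added log2 differences of 1 and 94.3% of those of 2. The largest class I difference, -0.76 for HLA-F, was smaller in size than either. Not passing the threshold therefore does not show that a class I gene was unchanged. Figures used matplotlib 3.10.9.

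The class I genes and the 6 lists were chosen with earlier results of these data known. Named beside them are the direct partners, the 2 highest and 2 lowest tested genes of each list, and the 4 genes most like HLA-F over the arrays; HLA-DOB was named after its values were seen. Alternatives were a replicate block, quantile normalization, centring on the median or 75th percentile, a dim filter at the 50th percentile or none, averaging a gene's probe sets, a variance trend, a robust prior, no moderation, a pseudocount of 16 and each array left out; probe sets without the _x_at or _s_at suffix were added after seeing the data.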

Additional observations from a re-analysis of the deposited data

Results flagged for a closer look

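The difference between the duplicates ran in opposite directions in the 2 lines for 4 of the 9 genes. Replicate 2 minus replicate 1 was 0.23 in PC9 and -0.041 in MTAC-P for B2M, and -0.14 and 0.35 for TAP2. For PSMB8 it was -0.31 in PC9 and 0.47 in MTAC-P, and for PSMB9 -0.24 and 0.29. Each value rests on 1 array a side, the labels do not say that a replicate number means the same in both lines, and the difference between the lines was not tested. Opposite signs were seen in 44.0% of all tested genes.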

How the results depend on the processing

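The count of 3 genes past limma's threshold was 1 with the 50th percentile filter, the pseudocount or the probe sets without the suffixes, 77 with a variance trend, and 0 with averaged probe sets (2667 at an unadjusted p under 0.05) or no moderation (1655); leaving out 1 array gave 0 to 68, with 3434 and 2012 at an unadjusted p under 0.05 where 0 passed. With the replicate number as a block, 2079 genes passed, and HLA-F was the only class I gene among them, at an unchanged -0.76 (limma adjusted p = 0.0064); its adjusted p ranged up to 0.728 over its alternatives. The labels give no pairing, and the duplicate differences of the lines correlated at r = 0.28 over 14970 genes with 2 pairs. Whether arrays with the same replicate number share anything beyond that number cannot be told from these values. No other alternative brought a class I gene past the threshold. Averaging its probe sets gave HLA-C -0.090, and it ran from -0.058 to 0.23 when 1 array was left out. The other 8 genes kept their sign in every alternative that could be run for them. HLA-B, HLA-C and HLA-E had no value with the probe sets without the suffixes, since theirs above the dim value all carry them. The HLA-B probe set without a suffix, below the dim value, went the other way, at 0.24 without overlap. The median over the 9 genes was 0.073 with averaged probe sets and 0.063 to 0.30 without 1 array. The PC9 duplicates of HLA-F differed by 0.34 with averaged probe sets.

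Some list medians moved by more than the duplicate spread. With the 50th percentile filter they were -0.20 for loading partners, -0.080 for regulators and 0.18 for class I-like genes, and with averaged probe sets 0.067 for loading partners and 0.18 for class I-like genes. With 75th percentile centring class I-like genes had 0.14. The range over the fits without 1 array, which also holds values within that spread, was -0.094 to 0.037 for loading partners, 0.035 to 0.13 for the constitutive proteasome, -0.093 to 0.13 for regulators, -0.25 to -0.044 for interferon-stimulated genes, 0.13 to 0.18 for class I-like genes and -0.13 to 0.050 for class II. The cause of the shifts was not tested.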
